A study of Mus musculus with 3 samples.

Results

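Among the 5962 cells of the E13.5 back skin library, 128 carried transcripts of early muscle progenitors and none of *Myog* or *Ttn*, which mark differentiating muscle. A cell was taken as a myogenic progenitor when at least 3 of the 6 genes *Pax7*, *Myf5*, *Msc*, *Chodl*, *Cdh15* and *Myod1* had a UMI (unique molecular identifier, the tag that counts each captured transcript once) and both *Myog* and *Ttn* had none. These cells made up 2.15% of the library (exact binomial interval 1.79% to 2.55%). Cells with a *Myog* UMI and at least 3 of *Ttn*, *Tnnt1*, *Actc1*, *Chrna1* and *Des* were taken as differentiating myocytes, of which there were 397 (6.66%), and the remaining 5437 cells are called the other E13.5 cells. The study profiled back skin of male C57BL/6 mice by droplet 3' single-cell sequencing at 3 stages (E13.5, E16.5 and newborn, P0). The deposited table holds 16235 cells in all, more than the study states for its own analysis, and all of them were used. Each stage was 1 library of skin pooled from several animals with no genetic change or treatment, digested with trypsin before birth and with collagenase IV at P0. With 1 library per stage no test was possible, and every interval below is a 95% interval that covers counting error only, not the spread between animals.

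In the vertebrate embryo the muscles of the back arise from cells that leave the somite. Pax3 and Pax7 keep these cells as dividing progenitors, and the basic helix-loop-helix factors Myf5 and Myod1 commit them to muscle. Myogenin, the product of *Myog*, then drives exit from the cell cycle, fusion into fibres and expression of the sarcomere, the contractile unit in which titin (*Ttn*) is the giant spring. Notch signals hold progenitors back from this step.

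The 128 progenitors held 1259539 UMIs, with a median of 7318.5 per cell (3882 to 36169) and 2701 genes per cell. The myocytes had a median of 8133 UMIs and the other E13.5 cells of 6985. Muscle transcripts were also found in cells that should lack them: among 289 cells with at least 3 of 6 endothelial markers (median 8174 UMIs), *Myog* had a UMI in 20.1% and *Ttn* in 6.23%. A *Myog* UMI was seen in 1232 cells of the library, in 799 of them exactly 1. Such transcripts were thus found in many cells. Whether they came from free RNA, from droplets with more than 1 cell or from the cells themselves was not tested. Among the 337 cells with at least 3 of the 6 genes, the rule left out 145 with a *Myog* UMI and 64 with *Ttn* alone. Of the 145 cells, 120 were counted among the myocytes. The values in endothelial-marker cells are given below for part of the genes, as one measure of such transcripts outside muscle. Those in 582 cells with at least 3 immune markers and 602 with at least 3 epithelial markers are added where they were clearly higher. Progenitors and myocytes were left out of these marker groups, 7 and 9 cells in the case of endothelial markers. This lowers the values of the groups for the genes that chose progenitors and myocytes.

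Of the 6 genes of the rule, *Msc* was found in the most progenitors. *Msc* (musculin, a repressor of muscle-specific transcription, chromosome 1, 14753346 to 14755992 in GRCm38) had a UMI in 120 of the 128 cells and up to 29 UMIs in a cell. *Myf5* (chromosome 10, 107482908 to 107486134) was found in 84 cells and *Cdh15* (M-cadherin, the adhesion molecule of muscle precursors, chromosome 8, 122847966 to 122867397) in 81. *Pax7* (chromosome 4, 139737062 to 139833528) was found in 70 cells, *Myod1* (chromosome 7, 46376474 to 46379099) in 66 and *Chodl* (chondrolectin, a membrane lectin, chromosome 16, 78930948 to 78951733) in 44. In the endothelial-marker cells *Msc* was found in 13.1%, *Myod1* in 7.96%, *Cdh15* in 5.54%, *Pax7* and *Myf5* in 2.08% each and *Chodl* in 1.38%, while in immune-marker and epithelial-marker cells *Chodl* was found in 4.12% and 4.98%. The rule required 3 of these genes, and 72 progenitors met it with exactly 3, 35 with 4, 17 with 5 and 4 with all 6.

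These genes chose the cells, so their levels are a description. A level is the sum of the UMIs of a gene in a group, given per 1000000 UMIs of that group (CPM). *Pax7* was at 101 CPM in progenitors (84.1 to 120), 19.8 CPM in myocytes and 4.34 CPM in the other cells. *Myf5* was at 109, 23.0 and 5.12 CPM, and *Msc* at 484, 165 and 30.1 CPM. *Chodl* stood apart from these in that the myocytes, at 7.10 CPM (4.92 to 9.93), held no more of it than the other cells at 9.62 CPM, against 61.9 CPM (49.0 to 77.3) in progenitors. *Cdh15* was somewhat lower in progenitors, at 108 CPM (90.6 to 127.7) against 138 CPM (128.0 to 149.3) in myocytes. *Myod1* was lower by more, at 97.7 CPM (81.2 to 117) against 340 CPM (324 to 357). In this description *Pax7*, *Myf5*, *Msc* and *Chodl* were higher in progenitors, and *Myod1*, and less so *Cdh15*, in myocytes. Every progenitor had to hold at least 3 of the 6 genes, while 120 of the 397 myocytes did, so these differences are in part set by the rule. The myocytes included 101 cells with exactly 1 *Myog* UMI, a level also met outside muscle. In the 201 myocytes with 5 or more *Myog* UMIs, *Pax7* was at 11.5 CPM, *Myf5* at 12.6, *Msc* at 77.3 and *Chodl* at 2.98 CPM. In the same cells *Cdh15* was at 192 CPM (176 to 210) and *Myod1* at 522 CPM.

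**Figure D1:**
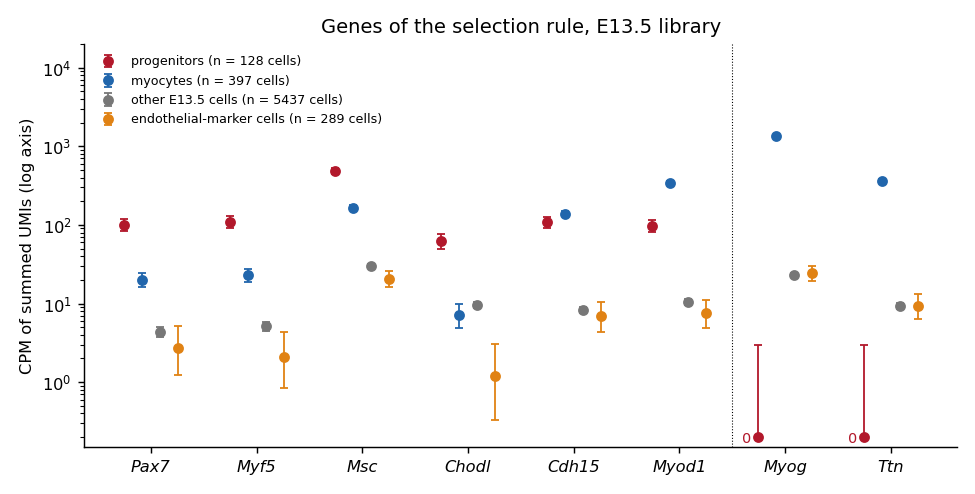
CPM of summed UMIs (log axis) for the 6 genes that had to be present and, right of the dotted line, the 2 that had to be absent, in progenitors, myocytes, other E13.5 cells and endothelial-marker cells. Points are group sums and bars are 95% Poisson intervals (counting error only), and the 2 points marked 0 lie at the lower edge of the axis. *Pax7*, *Myf5*, *Msc* and *Chodl* are highest in progenitors and *Myod1* is highest in myocytes.

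Genes that the rule did not name also differed between the progenitors and the rest of the library. They were read in the cells that the rule chose, so their values are a description too. Of 13535 genes with at least 50 UMIs over both groups, 82 (0.606%) were at least 2-fold higher in progenitors than in the other E13.5 cells and 190 (1.4%) at least 2-fold lower (2.01% either way), on the scale of log2 of CPM with 10 added, where the median gene stood at −0.13. *Kcne1l* (called *Kcne5* in later annotations, a regulatory subunit of potassium channels, chromosome X, 142304752 to 142306294) had the highest difference outside the rule. It was at 353 CPM in progenitors (320 to 387), 107 CPM in myocytes and 28.4 CPM in the other cells, a log2 difference over the other cells of 3.24 (3.10 to 3.38). A *Kcne1l* UMI was found in 90 progenitors (70.3%) and in 9% of endothelial-marker, 11.5% of immune-marker and 13.6% of epithelial-marker cells.

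Transcription factors that act upstream of or beside the Myf5 and Myod1 family came next. Of 27 such factors 26 had at least 50 UMIs, and 6 were at least 2-fold higher than in the other cells, among them *Pitx3*, *Pitx1*, *Barx2*, *Lbx1* and *Sox8*, and 0 lower, with a list median of 0.14. *Pitx3*, a homeobox factor of the muscle lineage, was at 72.2 CPM in progenitors (58.2 to 88.7) and 6.94 CPM in the other cells, a log2 difference of 2.28 (2 to 2.55), and *Pitx1* at 32.6 against 3.64 CPM. *Barx2*, a homeobox factor that acts with Pax7 in muscle growth, was at 106 CPM against 15.6 CPM, and at 44.7 CPM in epithelial-marker cells. *Lbx1*, known for the progenitors that migrate into limb and tongue, was at 37.3 CPM (27.4 to 49.6) against 9.45 CPM. *Vgll2*, a muscle cofactor of the Tead factors, was at 73.0 CPM against 5.88 CPM (log2 difference 2.39).

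These factors were at much the same level in myocytes, apart from *Vgll2* and *Sox8*. *Pitx3* was at 82.5 CPM there, *Pitx1* at 30.1, *Barx2* at 125 and *Lbx1* at 35.7 CPM, each with an interval that overlapped that in progenitors. *Vgll2* was higher in myocytes, at 170 CPM (158 to 182), and *Sox8* was at 36.4 CPM there against 17.5 CPM in progenitors. Among the 15 factors with at least 50 UMIs over progenitors and myocytes, 0 passed 2-fold in either direction. *Eya1*, a coactivator in the control of *Myf5* and *Myod1*, was at 19.8 CPM in progenitors against 5.82 CPM in the other cells, a difference short of 2-fold on this scale. *Pax3*, the other Pax gene of the muscle lineage, had 7 UMIs in 6 progenitors, or 5.56 CPM (2.23 to 11.5), against 12.5 CPM in the other cells, so almost none of these cells carried it at this depth.

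Genes of differentiated muscle were not wholly absent. *Actc1* (cardiac actin, the first sarcomeric actin of embryonic muscle) was found in 95 progenitors (74.2%) and in 33.2% of endothelial-marker cells, at 330 CPM (299 to 364) against 54.1 CPM. *Tnnt1* (slow troponin T) was found in 102 progenitors (79.7%) and 23.9% of endothelial-marker cells, and *Des* (desmin, the muscle intermediate filament) in 68 (53.1%) and 9%. These genes were thus higher in progenitors than in endothelial-marker cells. All of them also helped to choose the myocytes left out of that group, which lowers its values. In contrast, *Chrna1* (an acetylcholine receptor subunit) had 3 UMIs in 3 progenitors, at 2.38 CPM (0.491 to 6.96), and lay close to the 1.5 CPM of endothelial-marker cells. *Isl1*, a factor of motor and sensory neurons and of some muscle progenitors, was the only neuron marker of 6 past 2-fold higher, at 72.2 CPM in progenitors, 75.2 CPM in myocytes and 7.85 CPM in the other cells, while *Tubb3* and *Stmn2* of that list were past 2-fold lower.

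**Figure D2:**
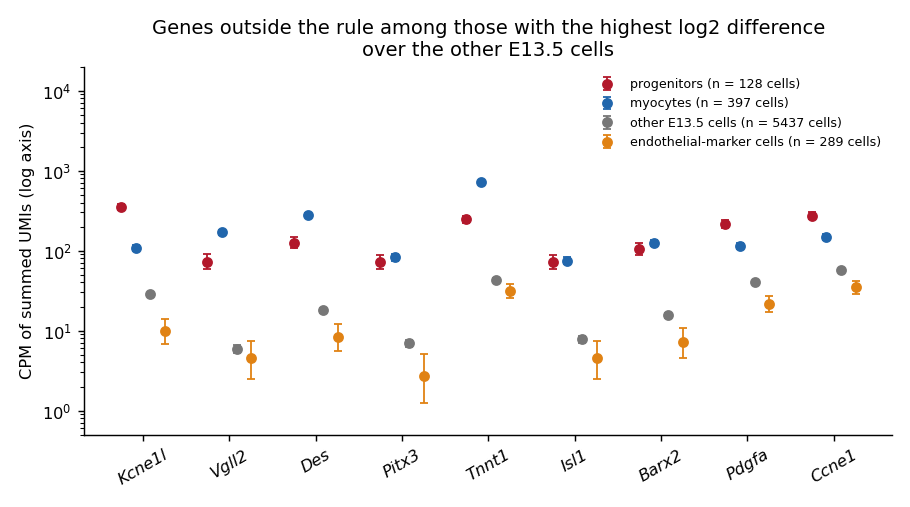
CPM of summed UMIs (log axis) of 9 genes outside the rule among those with the highest log2 difference over the other E13.5 cells, in the same 4 groups, with 95% Poisson intervals (counting error only). Every gene is higher in progenitors and in myocytes than in the other E13.5 cells, *Kcne1l*, *Pdgfa* and *Ccne1* are higher in progenitors than in myocytes, and *Tnnt1*, *Des* and *Vgll2* are higher in myocytes. *Pdgfa* and *Ccne1* were chosen after their values were seen.

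The threshold of 3 genes fell on a slope. Among cells without *Myog* and *Ttn*, *Kcne1l* was at 15.5 CPM with 0 of the 6 genes, 27.6 CPM with 1, 87.2 CPM with 2, 216 CPM with 3, 414 CPM with 4 and 495 CPM with 5 or 6. *Barx2* was at 7.9, 14.1, 37.6, 90.5, 91.4 and 144 CPM over the same steps. *Vgll2* went from 12 CPM in the 176 cells just outside the rule to 51.7 CPM in the 72 cells just inside it. The cells just outside thus held muscle-lineage transcripts above those of cells with 0 or 1 of the genes. Depth moved with these steps, with a median of 6091 UMIs in cells with 2 genes, 6431 with 3, 9722 with 4 and 18511 with 5 or 6.

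Dermal and immune markers were lower at each further step, and erythroid markers only in cells with 5 or 6 genes. The 8 dermal markers summed to 6488 CPM with 0 genes and to 1310 CPM with 5 or 6, and in the progenitors as a whole to 3159 CPM, 50.4% of the level in the other E13.5 cells. Myocytes stood at 48.8% of that level and endothelial-marker cells at 34.5%. *Lum* (lumican, a matrix proteoglycan of dermal fibroblasts) was at 558 CPM with 3 genes and 76.1 CPM with 5 or 6, against 737 CPM in the other cells. The 6 erythroid markers, which mark red blood cells, summed to 85.8% of the level of the other cells in progenitors, and to 10.3% in cells with 5 or 6 genes. At least 3 of the 6 erythroid markers were seen in 91 progenitors and at least 3 of the 8 dermal markers in 125. At least 3 markers were seen in 19 progenitors for neurons, 10 for epithelium, 7 for endothelium, 3 for immune cells and 2 for Schwann and neural crest cells. Free RNA and droplets with more than 1 cell could not be separated, and their part in the values was not tested.

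**Figure D3:**
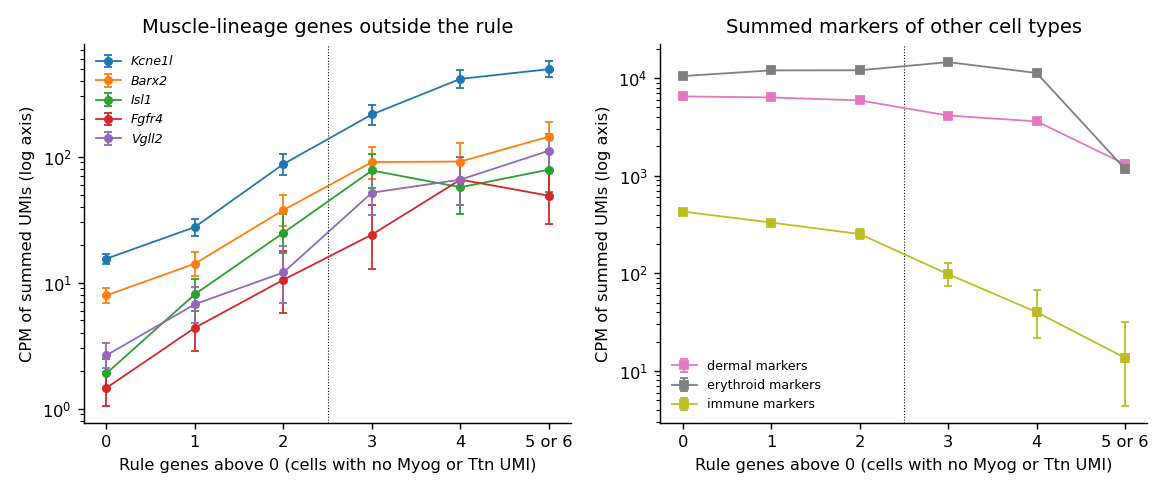
Left, CPM (log axis) of 5 muscle-lineage genes outside the rule in E13.5 cells without *Myog* and *Ttn* UMIs, by the number of rule genes with a UMI. Right, summed CPM (log axis) of dermal, erythroid and immune markers in the same cells. Bars are 95% Poisson intervals (counting error only) and the dotted line is the threshold of the rule. The muscle-lineage genes climb over the steps up to 3 genes and the dermal and immune sums decline.

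The genes lowest against the other cells belonged to those other types. The 10 lowest were *Apoe*, *C1qc*, *Pf4*, *C1qb*, *Tyrobp*, *C1qa* and *Lyz2*, all known from macrophages, *Krt17* and *Sfn* of epithelium and *Cma1* of mast cells. *Apoe* was at 90.5 CPM in progenitors and 624 CPM in the other cells, and *C1qc* at 6.35 against 88.6 CPM. Of the lists, 5 of 6 immune markers, 5 of 6 epithelial markers, 4 of 8 dermal markers, 2 of 6 Schwann and neural crest markers and 1 of 6 endothelial markers were at least 2-fold lower, and 0 of them higher. *Twist1*, a helix-loop-helix repressor of Myod1 that is abundant in dermal fibroblasts, was at 69.9 CPM against 171 CPM, with a log2 difference of −1.18 (−1.46 to −0.91).

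A few genes of the Notch pathway were higher than in the rest of the library, while the list as a whole was not. Of the 22 Notch genes counted, 4 were at least 2-fold higher than in the other cells and 0 lower, where 0.606% of all genes were higher. The list median was −0.03, against −0.13 over all genes. *Hey1* and *Heyl*, the transcriptional repressors induced by Notch in muscle progenitors, were at 32.6 CPM (23.4 to 44.2) and 26.2 CPM (18 to 36.8), against 7.87 and 7.36 CPM. *Lfng*, which modifies Notch receptors, was at 28.6 against 8.59 CPM and *Dtx4*, a Deltex ubiquitin ligase, at 27.0 against 7.13 CPM. Against myocytes 0 of 16 Notch genes passed 2-fold, with a median of 0.27. *Hey1* was at 14.4 CPM and *Heyl* at 9.40 CPM in myocytes, with log2 differences of 0.80 (0.39 to 1.20) and 0.90 (0.47 to 1.32). The ligand *Dll1* lay the other way, at 3.97 CPM in progenitors (1.29 to 9.26) and 14.4 CPM in myocytes (11.2 to 18.2). The receptor *Notch2* was level, at 175, 172 and 170 CPM in progenitors, myocytes and other cells. *Notch3* was at 26.2, 14.2 and 13.6 CPM.

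Few genes of the receptor and ligand lists passed 2-fold against the other cells. *Fgfr4*, the fibroblast growth factor receptor of muscle progenitors, was at 42.9 CPM in progenitors (32.2 to 55.9), 28.4 CPM in myocytes and 3.38 CPM in the other cells, and was the only one of 17 counted genes of the Fgf, Met and Cxcr4 list past 2-fold higher. The ligand *Cxcl12* of the same list was past 2-fold lower, at 54.8 against 123 CPM. *Spry1*, an intracellular brake on such receptors, was at 43.7 CPM in progenitors against 17.5 CPM in myocytes (log2 difference 0.96, 0.58 to 1.34). *Fzd4*, a Wnt receptor, was at 23.8 CPM against 5.46 CPM in the other cells, the only one of 22 Wnt and hedgehog genes past 2-fold. *Igfbp3*, a binding protein of insulin-like growth factors, was at 308 CPM in progenitors, 270 in myocytes and 112 in the other cells. *Nrk*, a kinase of the germinal centre kinase family, was at 201, 147 and 59.1 CPM. *Met*, the receptor that guides migrating progenitors, had 11 UMIs in progenitors and *Cxcr4* had 0, which allows up to 2.38 CPM.

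Against the differentiating myocytes more genes were lower than higher. Of 8618 genes with at least 50 UMIs over both groups, 17 (0.197%) were at least 2-fold higher in progenitors and 153 (1.78%) at least 2-fold lower, about a median of 0.02 (1.97% either way). The myocytes held 4786463 UMIs, so a minimum summed over both groups admits genes present only in myocytes at lower CPM than genes present only in progenitors. With a minimum mean of 20 CPM that weights both groups alike, 5737 genes were left, of which 14 were higher and 87 lower. Against the 201 myocytes with 5 or more *Myog* UMIs 41 genes were higher and 228 lower. The rule set *Myog* at 0 UMIs in progenitors (up to 2.38 CPM) and at least 1 per cell in myocytes, where it reached 1332 CPM, and it set *Ttn* at 0 against 365 CPM. Since the same cells were chosen by genes of this program, the differences in its other genes are given as a description. Of 48 sarcomere and excitation genes 32 could be counted, of which 25 were at least 2-fold lower in progenitors and 0 higher, with a median log2 difference of −1.53. *Tnni1* (slow troponin I) was at 3.97 CPM in progenitors (1.29 to 9.26) and 237 CPM in myocytes, and *Tnnt2* (embryonic troponin T) at 11.9 CPM (6.67 to 19.6) and 323 CPM. *Myl1* and *Mylpf*, the light chains of fast myosin, were at 4.76 and 17.5 CPM against 184 and 314 CPM. *Tnnc1* and *Acta1* (skeletal actin) were at 3.18 and 2.38 CPM against 118 and 108 CPM. *Neb* (nebulin, which lies along the thin filament) differed from these in that it stayed above the rest of the library, at 37.3 CPM in progenitors, 177 CPM in myocytes and 6.01 CPM in the other cells.

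Of 6 counted fusion genes 3 were at least 2-fold lower than in myocytes. *Gm7325*, which encodes the fusion peptide myomixer, had 5 UMIs in the progenitors, at 3.97 CPM (1.29 to 9.26), against 5.68 CPM in endothelial-marker cells and 243 CPM in myocytes. *Tmem8c*, which encodes the fusion protein myomaker, had 3 UMIs, at 2.38 CPM (0.491 to 6.96), against 2.39 and 164 CPM. *Cav3*, muscle caveolin, was the third, at 1.59 against 20.5 CPM in myocytes. *Jam3*, an adhesion molecule of broad expression, was at 87.3 CPM in progenitors, 173 in myocytes and 84.8 in the other cells.

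The genes of the nerve-muscle synapse were split. *Chrna1*, at 2.38 against 100 CPM, *Chrng*, at 0.794 against 33.8 CPM, and *Dok7*, at 3.97 against 24.9 CPM, were at least 2-fold lower than in myocytes. *Chrna1* was among the genes that chose the myocytes, so its difference is set in part by that choice. *Chrnb1*, the beta subunit of the receptor, and *Rapsn*, which clusters it, were at 16.7 CPM (10.3 to 25.5) and 21.4 CPM (14.1 to 31.2) in progenitors, close to 23.8 and 25.5 CPM in myocytes and above the 1.97 and 3.93 CPM of the other cells. Summed over the progenitors, 2 parts of the receptor complex were thus present with almost no *Chrna1*. Whether single cells held them together was not examined. *Chrnb1* had 0 UMIs in the progenitors with *Pax7* and no *Myod1*, and 8 in those with *Myod1* and no *Pax7*.

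Late factors and genes of cell cycle exit were lower in progenitors for part of each list. *Mef2c*, a partner of myogenin, was at 30.2 CPM in progenitors, 162 CPM in myocytes and 68.4 CPM in the other cells. *Hes6*, which favours differentiation, was at 94.5, 234 and 39.9 CPM. With *Mef2a* and *Smyd1* these made 4 of 8 late factors at least 2-fold lower than in myocytes. *Cdkn1a* (p21, an inhibitor of cyclin-dependent kinases) was at 7.94 CPM (3.81 to 14.6) against 232 CPM in myocytes, with *Rb1* at 3.18 against 34.9 CPM and *Gadd45g* at 36.5 against 122 CPM, 3 of 15 genes of that list. *Cdkn1c* (p57, a related inhibitor) differed: it had a UMI in all 128 progenitors and was at 3933 CPM, below the 5804 CPM of myocytes and above the 1967 CPM of the other cells. *Ccnd3*, the D cyclin of the muscle lineage, was level with myocytes at 548 and 539 CPM, against 265 CPM in the other cells. Further genes lower in progenitors were *Cd82*, a tetraspanin, at 14.3 against 119 CPM, and *Fst* (follistatin, an antagonist of myostatin), at 16.7 against 101 CPM.

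**Figure D4:**
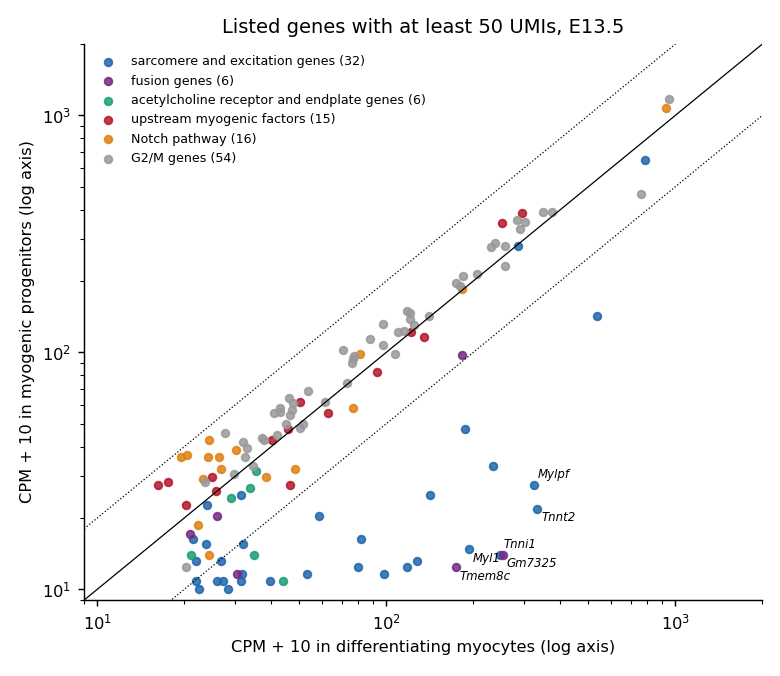
CPM with 10 added in progenitors against myocytes (both axes log) for the genes of 6 lists with at least 50 UMIs over both groups. Each point is a gene, the solid line is equality and the dotted lines are 2-fold. Of the sarcomere genes 25 of 32, and of the fusion genes 3 of 6, lie below the lower dotted line, and no gene of the upstream factor, Notch and G2/M lists lies outside the dotted lines.

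The promoters of genes low in progenitors can be read for the E-box CAGCTG, a palindromic site that Myod1 and myogenin are known to bind. In the RefSeq windows of 250 bases before and 50 after each start (GRCm38.p6), 18.3% of 27025 genes held the motif. It was found in 17 of 35 sarcomere and excitation genes with a window (48.6%) and in 5 of the 8 with a window among the 10 genes lowest against myocytes (*Tnni1*, *Tnnt2*, *Cdkn1a*, *Myl1* and *Mylpf*). Among the 10 genes highest against myocytes 1 of 8 with a window held it (*Kcne1l*), and of the rule genes 0 of 4. Upstream stretches of 3 genes lower in progenitors than in myocytes are printed to show the site in place. They run 5′ to 3′ on the strand of the gene, with each CAGCTG in capitals. They lie at chr2:73580339-73580588 on the minus strand (*Chrna1*), chr7:127211358-127211607 on the plus strand (*Mylpf*) and chr1:135836084-135836333 on the plus strand (*Tnnt2*).
Chrna1: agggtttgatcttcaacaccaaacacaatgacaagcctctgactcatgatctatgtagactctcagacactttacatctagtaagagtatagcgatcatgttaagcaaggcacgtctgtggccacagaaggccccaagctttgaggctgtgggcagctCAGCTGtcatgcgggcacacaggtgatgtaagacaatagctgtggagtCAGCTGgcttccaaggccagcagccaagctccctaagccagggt
Mylpf: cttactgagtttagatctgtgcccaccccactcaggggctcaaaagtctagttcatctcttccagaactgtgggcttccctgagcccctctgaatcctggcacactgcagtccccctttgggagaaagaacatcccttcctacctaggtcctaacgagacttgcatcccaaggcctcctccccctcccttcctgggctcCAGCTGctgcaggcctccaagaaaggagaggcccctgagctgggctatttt
Tnnt2: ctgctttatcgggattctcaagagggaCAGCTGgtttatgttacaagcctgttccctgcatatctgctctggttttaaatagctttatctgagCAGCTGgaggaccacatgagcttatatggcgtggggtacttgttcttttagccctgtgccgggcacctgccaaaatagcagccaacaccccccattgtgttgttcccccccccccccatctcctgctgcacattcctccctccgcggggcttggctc
The first base of the motif lay 92 and 44 bases before the start in *Chrna1*, 51 in *Mylpf* and 223 and 157 in *Tnnt2*. A match of these letters is no evidence of binding, and the genes were picked for their levels. *Chrna1* was also among the genes that chose the myocytes.

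The genes higher in progenitors than in myocytes were few. Besides *Chodl*, *Pax7*, *Myf5* and *Msc*, which the rule used, the 10 highest were *Kcne1l*, *Asb4*, *Dbx1*, *Ntf3*, *Lamp5* and *Zcchc5*. *Asb4*, of a family of ubiquitin ligase adaptors, was at 44.5 CPM (33.6 to 57.7) in progenitors against 11.1 CPM in myocytes, but it was as high in endothelial-marker cells, at 44.0 CPM. Within the progenitors *Asb4* was at 29.6 CPM with 3 rule genes and 67.9 CPM with 5 or 6. The endothelial markers together had 0 UMIs in the latter cells (up to 8.15 CPM). Median depth also differed, at 6431 and 18511 UMIs, and the part of endothelial RNA in the *Asb4* values was not tested. *Dbx1*, a homeobox factor known from the spinal cord, was at 27.0 CPM (18.7 to 37.7) in progenitors, 5.01 CPM in myocytes and 0.888 CPM in the other cells. It was found in 18 progenitors (14.1%) and 0.346% of endothelial-marker cells, and reached 57.1 CPM (35.3 to 87.2) in cells with 5 or 6 rule genes. *Ntf3* (neurotrophin 3, a survival factor of proprioceptive sensory neurons) was at 26.2 CPM in progenitors, 5.43 CPM in myocytes and 10.0 CPM in the other cells. For *Lamp5*, 20 of the 29 UMIs in progenitors came from a single cell. *Peg10* was at 42.1 against 13.8 CPM and *Tagln* at 84.2 against 34.7 CPM, and both were seen outside muscle, *Peg10* at 37.1 CPM in endothelial-marker cells and *Tagln* at 50.9 CPM in the other cells.

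The cells that the rule left out for *Myog* or *Ttn* UMIs were grouped by these UMIs. Most of those with *Myog* were also counted among the myocytes, 35 of the 47 cells with 1 *Myog* UMI, 25 of the 36 with 2 to 4 and 60 of the 62 with 5 or more. The 64 cells with at least 3 of the 6 genes, a *Ttn* UMI and no *Myog* were at 68.0 CPM for *Pax7* and 30.1 CPM for *Chodl*. The 47 cells with 1 *Myog* UMI were at 70.9 and 33.4 CPM, the 36 cells with 2 to 4 at 48.4 and 27.1 CPM, and the 62 cells with 5 or more at 26.8 and 6.92 CPM. *Actc1* went from 330 CPM in progenitors to 751 CPM in the cells with *Ttn* alone, 738 and 953 CPM at the next steps and 2338 CPM with 5 or more *Myog* UMIs. *Gm7325* was at 3.97, 6.80, 1.39 and 21.3 CPM before 212 CPM (186 to 240) at the last step. *Tmem8c* was at 2.38, 1.94, 5.56 and 5.81 CPM before 170 CPM, and *Cdkn1a* at 7.94, 3.89, 4.17 and 7.75 CPM before 208 CPM.

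In summed CPM *Pax7* and *Chodl* were thus lower at each group of cells with more *Myog*, apart from the group with 1 UMI. Between the groups with 1 and with 2 to 4 *Myog* UMIs the intervals overlapped. *Pax7* was at 52.8 to 93.2 and 31.3 to 71.5 CPM there, and *Chodl* at 21.4 to 49.6 and 14.8 to 45.5 CPM. With 5 or more, *Pax7* was at 18.2 to 38.1 CPM and *Chodl* at 2.99 to 13.6 CPM, below their intervals in progenitors. *Gm7325*, *Tmem8c* and *Cdkn1a* reached 170 CPM or more only in the group with 5 or more. *Msc* was at 484, 523, 543, 357 and 170 CPM over the 5 groups, lower than in progenitors only in the last 2. *Vgll2* was at 73.0, 43.7, 41.7 and 63.9 CPM before 263 CPM. *Myod1* was at 97.7, 131, 121 and 149 CPM before 474 CPM (435 to 516). The groups also differed in depth, from a median of 7318.5 UMIs in progenitors to 11316 with 1 *Myog* UMI and 16079 with 5 or more, and the dermal sum stood at 26.0% of that of the other cells in the last group against 50.4% in progenitors. All 5 groups were chosen by the rule genes, *Pax7*, *Chodl*, *Msc* and *Myod1* among them. A cell with *Myod1* could thus meet the minimum without *Pax7* or *Chodl*. The part of this choice, of depth and of free RNA in these steps was not tested.

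**Figure D5:**
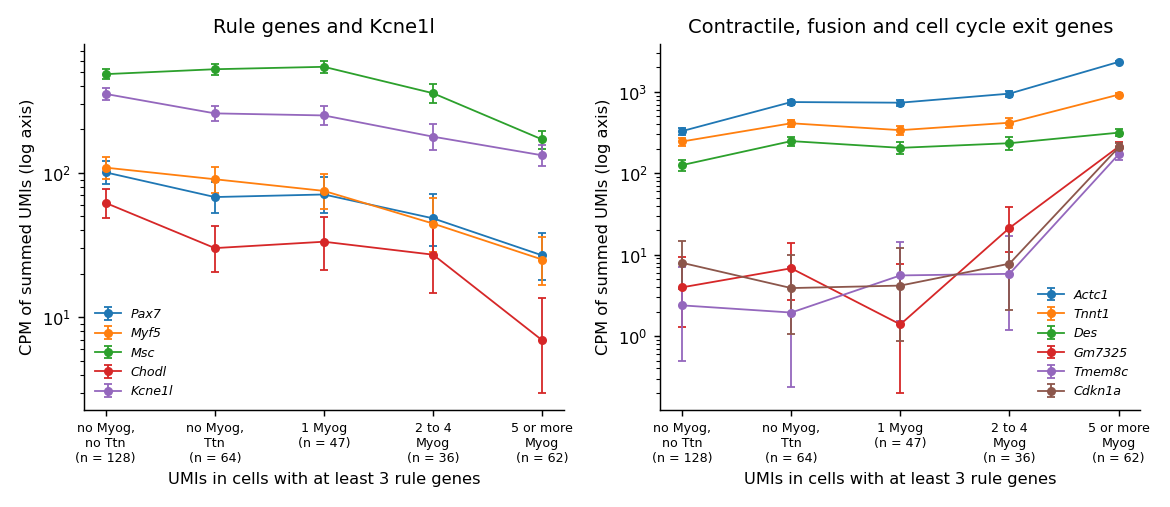
CPM (log axis) in E13.5 cells with at least 3 of the 6 rule genes, by their *Myog* and *Ttn* UMIs, with 95% Poisson intervals (counting error only) and the number of cells under each group. Left, 4 rule genes and *Kcne1l*. Right, *Actc1*, *Tnnt1* and *Des* are raised from the second group on, and *Tmem8c* and *Cdkn1a* only in the group with 5 or more *Myog* UMIs. *Gm7325* is by far highest in that group and is already above its progenitor level in the group just before it.

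Cell cycle transcripts were plentiful in progenitors. *Mki67*, which marks cells in the cycle, was found in 71 progenitors (55.5%), at 121 CPM (103 to 142), against 87.1 CPM (79.0 to 95.9) in myocytes and 91.9 CPM in the other cells. After each cell was thinned to 3500 UMIs, *Mki67* was found in 36.7% of progenitors (28.4% to 45.7%), 24.7% of myocytes (20.5% to 29.2%) and 31.1% of endothelial-marker cells. It was found in 38.7% of the 62 cells with at least 3 rule genes and 5 or more *Myog* UMIs. *Top2a*, another cycle gene, was level, at 51.6%, 48.9% and 52.2% of progenitors, myocytes and endothelial-marker cells. The median number of G2/M genes per thinned cell was 16, 15 and 16 in these groups. The 54 G2/M genes summed to 7754 CPM in progenitors, 7025 CPM in myocytes and 6741 CPM in the other cells, and the 42 S phase genes to 3188, 2863 and 2718 CPM. A minimum of 4 G2/M genes per thinned cell did not separate the groups, being met by 100% of progenitors, 99.0% of myocytes and 95.7% of the other cells. With a minimum of 8 the shares were 95.3% (90.1% to 98.3%), 84.6% (80.7% to 88.0%) and 72.4%, against 92.4% of endothelial-marker cells and 79.1% of the 201 myocytes with 5 or more *Myog* UMIs. No gene of either list passed 2-fold between progenitors and myocytes, and the list medians were 0.19 for G2/M and 0.12 for S phase, against 0.02 over all genes. No phase was called from these counts, and whether free RNA carries such transcripts was not tested.

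The progenitors varied among themselves in *Pax7* and *Myod1*. A UMI of *Pax7* without *Myod1* was seen in 38 cells, of both in 32, of *Myod1* without *Pax7* in 34 and of neither in 24. The split uses genes of the rule, and at these depths a gene without a UMI can still be expressed. *Kcne1l* was at 475 CPM (408 to 551) in the cells with *Pax7* alone, 380 CPM with both and 232 CPM (176 to 300) with *Myod1* alone. In the other direction *Actc1* was at 206 CPM (163 to 258), 376 and 464 CPM (384 to 557), *Des* at 76.1, 142 and 184 CPM, and *Barx2* at 51.6, 131 and 144 CPM. Cells with *Pax7* alone thus held more *Kcne1l*, and cells with *Myod1* alone more *Actc1*, *Des* and *Barx2*, with intervals that did not overlap. *Fgfr4* had 29 UMIs with *Pax7* alone and 5 with *Myod1* alone, *Vgll2* 40 and 7, and *Heyl* 18 and 4, all under the minimum of 50 UMIs over both groups. These are raw counts, and the cells with *Pax7* alone held more UMIs in all, 368089 against 249840.

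Over 1818 genes with at least 50 UMIs, 13 (0.715%) were at least 2-fold higher with *Pax7* alone and 22 (1.21%) with *Myod1* alone (1.93% either way). Other transcripts moved with this split. The dermal markers stood at 43.3% of the other cells with *Pax7* alone and 65.8% with *Myod1* alone, and the erythroid markers at 62.2% and 130%, 3 of 4 counted erythroid genes being past 2-fold. Median depth was 8068.5 and 6431 UMIs. The part of these in the differences was not tested.

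By the same rule 6 of 5208 cells at E16.5 (0.115%, 0.0423% to 0.251%) and 5 of 5065 at P0 (0.0987%, 0.0321% to 0.230%) were myogenic progenitors. The share at E13.5 lay above both intervals, though stage cannot be told apart from library and, at P0, from the digestion. The few later cells carried *Msc* in all 6 and all 5, at 234 CPM (141 to 365) and 457 CPM (266 to 732). *Chodl* was at 160 CPM (85.1 to 273) at E16.5 and 430 CPM (246 to 698) at P0, against 61.9 CPM (49.0 to 77.3) at E13.5. *Kcne1l* was at 123 CPM (59.0 to 226) and 80.6 CPM (16.6 to 236) against 353 CPM, on 10 and 3 UMIs. *Tnnt1*, found in 102 of the 128 progenitors at E13.5, had 0 UMIs in the E16.5 cells (up to 36.9 CPM) and 2 in the P0 cells. *Cd34*, a sialomucin of quiescent satellite cells among other cells, had 10 and 7 UMIs, at 123 CPM (59.0 to 226) and 188 CPM (75.6 to 388). At E13.5 *Cd34* was at 27.2 CPM in progenitors with *Pax7* alone and 32.0 CPM in those with *Myod1* alone. Its level in the remaining E16.5 and P0 cells was not read, and the part of free RNA was not tested. *Fgfr4* was at 73.8 CPM (27.1 to 161) and 108 CPM (29.3 to 275), with intervals that overlapped the 42.9 CPM (32.2 to 55.9) at E13.5. Of the progenitor barcodes at E13.5, 1 also occurred in another library.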

How the data were processed

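Single-cell RNA of back skin was measured in 3 libraries, 1 per stage. The authors aligned reads to mm10 and counted UMIs with Cell Ranger 2.2.0 per the labels, applied Seurat filters (a minimum of 1750 genes per cell and of 3 cells per gene), and deposited values on the natural log scale, taken after adding 1 to UMIs scaled to 10000 per cell. The methods name no doublet removal, and no caller was run. All 48197283 deposited values above 0 gave whole UMIs within a tolerance of 0.001. The E13.5 library held 53334740 UMIs, and it shared 44 barcodes with E16.5 and 41 with P0. UMIs were summed per group of cells. Differences are log2 of CPM plus 10 for genes with at least 50 UMIs over both groups, and a difference counts from 2-fold. Intervals are exact Poisson and exact binomial at 95%, and a count of 0 was given the limit of 3 UMIs. Shares of cells by cycle genes used cells thinned to 3500 UMIs. Because each stage had 1 library, no test was run. The method was tested on simulated data. The cells and all 31 gene lists were chosen with earlier results of these data known. Named genes were the rule genes, listed genes and the 10 highest and 10 lowest of each contrast. Promoters are from RefSeq and positions from GENCODE, where 468 of 474 symbols matched. Analysis used Python 3.11.15, NumPy 2.4.6, SciPy 1.17.1, pandas 2.3.3 and matplotlib 3.10.9. Some listed genes are not reported here.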

Additional observations from a re-analysis of the deposited data

How the results depend on the processing

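With 1 library per stage there is no replicate check, the intervals cover counting error only, and doublets and free RNA were not removed, which limits any statement on low levels. No paired analysis was possible because each stage had 1 library and no result came from a test. Of the alternative values of results that answer a comparison, 36 stayed close to the main value (counts within 1.5 times) and 38 moved. No difference past 2-fold changed sign, but smaller ones did, such as *Fgfr4* against myocytes, at 0.46 as reported and −0.08 with a minimum of 2 rule genes. Reported were 128 cells, 17 genes higher and 153 lower than in myocytes, and 82 higher and 190 lower than in the other E13.5 cells.

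A minimum of 2 rule genes gave 304 cells, with 4 genes higher than in myocytes and 42 higher and 26 lower than in the other cells. A minimum of 4 gave 56 cells, 33 genes higher than in myocytes and 516 lower than in the other cells, and a minimum of 5, added after seeing the data, gave 21 cells, 58 higher and 394 lower than in myocytes, and 179 higher and 963 lower than in the other cells. Without the condition on *Ttn* 11 genes were higher than in myocytes. Thinning before the rule left 75 cells, with 504 genes lower than in the other cells, and a minimum of 2500 genes per cell left 73 cells. Leaving out cells with markers of other types left 26, with 84 genes lower than in myocytes and 126 higher and 838 lower than in the other cells. When erythroid markers were not used for this, a choice made after seeing the data, 26 genes were higher than in myocytes and 324 lower than in the other cells. A reference with all 5 myocyte genes gave 92 higher and 263 lower, and one with at least 5 *Myog* UMIs, also added later, 41 higher. With 1 added to each CPM the counts were 56 and 301 against myocytes and 201 and 1957 against the other cells. With 50 added they were 4 and 38, and 22 and 22. A minimum of 200 UMIs gave 9 higher and 79 lower than in myocytes. A minimum mean of 20 CPM that weights both groups alike, added after seeing the data because the groups differ in total UMIs, gave 14 higher and 87 lower than in myocytes and 57 higher and 126 lower than in the other cells. It moved the median of the sarcomere and excitation genes against myocytes from −1.53 to −2.69 and that of the upstream factors against the other cells from 0.14 to 0.99. The share of progenitors with enough G2/M genes was 95.3% with a minimum of 8 genes. The counts of genes past 2-fold therefore depend on these settings, and more genes were lower than higher against myocytes under each of them, the ratio depending in part on the summed minimum. Of the values of single genes and lists, 239 moved and 522 did not. A single gene counted as moved when it left its counting interval. List medians have no interval and were held to a fixed shift.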

Other observations

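Imprinted genes are expressed from a single parental copy and are abundant in embryonic tissue. Against myocytes 1 of 18 counted genes was at least 2-fold higher (*Peg10*) and 0 lower, where 1.97% of all genes passed either way. The list median was 0.02, as over all genes. *Meg3* was at 2518 CPM in progenitors, 2809 CPM in myocytes and 3998 CPM in the other E13.5 cells, and *Dlk1*, a Notch-like membrane protein known from muscle precursors, at 1065, 916 and 1537 CPM. *Plagl1*, a zinc finger factor of this group, was above the other cells, at 294 CPM (265 to 325) against 134 CPM, with 208 CPM in myocytes.

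Of 13 counted inhibitors of the helix-loop-helix factors 1 was at least 2-fold lower in progenitors than in myocytes, where 1.78% of all genes were. It was *Snai1*, at 10.3 CPM (5.5 to 17.6) against 33.0 CPM (28.1 to 38.6). *Id1* was at 104 CPM in progenitors and 117 CPM in myocytes, *Id2* at 132 and 99.2 CPM, and *Id3* at 299 and 242 CPM.

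Brown fat and muscle of the back share an embryonic origin in the somite. Of 8 adipogenic genes counted against the other cells 0 passed 2-fold, where 2.01% of all genes did, so the count says little. The list median was −0.31, against −0.13 over all genes. *Ebf2*, known from brown fat precursors, was at 18.3 CPM (11.6 to 27.4) in progenitors, 11.3 CPM in myocytes and 30.4 CPM in the other cells, and *Prdm16* at 5.56, 3.76 and 7.85 CPM.

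Of 9 genes that respond to tissue dissociation counted against the other cells 0 passed 2-fold. Over all genes 2.01% did, so a count of 0 says little about so short a list. The list median was −0.22, against −0.13 over all genes. *Fos* was at 38.1 CPM (28.1 to 50.5) in progenitors and 36.6 CPM in myocytes, below the 76.1 CPM of the other cells.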
